A study of Mus musculus with 6 samples.

Results

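The matrix of an infarct scar is built from more than collagen, and the genes described here encode its adhesive glycoproteins, elastic fibres, proteoglycans, basement membrane and crosslinking enzymes. The members were a list of 53 gene symbols, and each was found by its exact symbol among the 54532 genes of the deposited table. RNA had been sequenced from the infarct and peri-infarct heart tissue of 3 WT and 3 *Crlf2*-/- mice, with 1 library per mouse. *Crlf2* encodes TSLPR, the receptor chain that binds thymic stromal lymphopoietin (TSLP), and the labels give the groups as genotypes WT and TSLPR KO. Both groups were of strain C57BL/6, and all 6 mice had the left anterior descending coronary artery ligated to induce myocardial infarction (MI) and were sampled on day 7. By the study's methods the C57BL/6J mice were bought as young adult males, and the knockout had been made on the same background by a company other than their supplier. The age and sex of the *Crlf2*-/- mice are not given in the sources used here. An effect of the genotype therefore cannot be told apart from a difference between colonies. No sham-operated or uninjured heart was among the libraries, so the values compare genotypes within infarcted tissue and give no change with injury.

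In the days after MI, fibroblasts enter the wound, become myofibroblasts and lay down a provisional matrix of fibronectin and matricellular proteins, which collagen fibres later replace. Small leucine-rich proteoglycans bind collagen and shape its fibrils, fibrillins and elastin form elastic fibres, and enzymes of the lysyl oxidase family (LOX) join collagen and elastin chains by crosslinks that give the scar its strength. Latent TGF-β binding proteins hold the growth factor TGF-β in this matrix, and laminins, nidogens and perlecan form the basement membranes around vessels and cardiomyocytes.

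The promoters of 4 members are shown because these genes had an unadjusted p under 0.05 between the genotypes and a window that lies outside the gene itself. A window of 250 bases upstream of the transcription start was read from RefSeq (build GRCm38.p6) for the 33 of 53 members that matched by symbol. Capitals mark the searched motifs, and the last base of each line is next to the start. The start used for *Ltbp1* lies 39 bases before the gene, and the bases after it were not found in a GENCODE M21 transcript of the gene. For *Fbln1*, *Tnc* and *Vcan* they were found. *Fbln1* lies on the plus strand (chr15:85205699-85205948), *Ltbp1* on the plus strand (chr17:75005279-75005528), *Tnc* on the minus strand (chr4:64047016-64047265) and *Vcan* on the minus strand (chr13:89742513-89742762).
Fbln1: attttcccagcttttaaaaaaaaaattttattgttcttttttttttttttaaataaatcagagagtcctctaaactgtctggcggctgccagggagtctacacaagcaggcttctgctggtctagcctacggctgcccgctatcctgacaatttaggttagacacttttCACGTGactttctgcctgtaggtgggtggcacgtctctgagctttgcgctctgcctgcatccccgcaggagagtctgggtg
Ltbp1: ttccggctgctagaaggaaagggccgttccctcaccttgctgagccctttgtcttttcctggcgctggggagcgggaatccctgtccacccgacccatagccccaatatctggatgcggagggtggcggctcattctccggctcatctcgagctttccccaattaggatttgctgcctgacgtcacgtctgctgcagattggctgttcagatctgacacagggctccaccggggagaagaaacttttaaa
Tnc: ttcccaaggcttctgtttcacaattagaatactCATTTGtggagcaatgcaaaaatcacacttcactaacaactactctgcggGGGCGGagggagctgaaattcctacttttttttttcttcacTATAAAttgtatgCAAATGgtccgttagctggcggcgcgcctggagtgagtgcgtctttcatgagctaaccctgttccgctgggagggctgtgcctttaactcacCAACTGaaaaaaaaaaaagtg
Vcan: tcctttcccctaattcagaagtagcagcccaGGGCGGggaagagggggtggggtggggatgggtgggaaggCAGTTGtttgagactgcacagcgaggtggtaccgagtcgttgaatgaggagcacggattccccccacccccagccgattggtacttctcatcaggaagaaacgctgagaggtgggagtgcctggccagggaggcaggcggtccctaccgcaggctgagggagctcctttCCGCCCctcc

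The searched motifs were the TATA box (TATAAA), the GC box bound by SP1 (GGGCGG), the AP-1 site (TGANTCA), the STAT site (TTCNNNGAA), the MCAT site of TEAD factors (CATTCC) and the E box (CANNTG), each on both strands, with overlaps between motifs allowed. STAT factors act downstream of TSLPR. Of the 33 members with a promoter, 0 held the STAT letters, where 7.02% of 32851 promoters of the same length did. Each member had 1 window, the nearest to its gene start, while the 32851 were all promoters listed, so the shares are not of like units. Some member windows lie inside the gene, such as that of *Sparc*, 3103 bases from the gene start. The shares were not compared by a test. The GC box was found in 17 members (51.5%, against 32.7% of all promoters), the E box in 24 (72.7%, against 66.2%), the TATA letters in 6 (18.2%, against 12.4%), the MCAT letters in 4 (12.1%, against 12.6%) and the AP-1 letters in 2 (6.06%, against 6.75%). In the windows printed here, *Fbln1* held 1 E box at 81 bases before the start, *Vcan* held 2 GC boxes and 1 E box, and *Tnc* held the TATA letters at 126 bases before the start, with 1 GC box and 3 E boxes. The window of *Ltbp1* held none of the searched letters. Such matches describe the letters and are not shown to be bound sites.

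The libraries held 18508646 to 19682428 fragments on listed genes, with ranges that overlapped between the genotypes. Values are FPKM, the fragments of a gene scaled to its length and to the size of its library. *Crlf2* itself was at 26.6, 25.1 and 21.6 FPKM in the 3 WT libraries and at 13.2, 18.7 and 19.8 FPKM in the 3 *Crlf2*-/- libraries, so transcripts assigned to the targeted gene were fewer but present (log2 fold change -0.52, SE 0.17, adjusted p = 0.521 from limma). The 7 fibroblast markers, led by the fibrillar collagens *Col1a1* and *Col3a1*, summed to 5044 to 6023 FPKM in WT and 5927 to 6108 FPKM in *Crlf2*-/- hearts. Of these markers 3 were higher and 4 lower in *Crlf2*-/- hearts, with a median log2 fold change of -0.007. *Col1a1* was higher (log2 fold change 0.25) and *Tcf21* lower (-0.44), both without overlap of the groups. Cardiomyocyte markers were lower in *Crlf2*-/- hearts for 8 of 8 genes, with sums of 919 to 1789 FPKM in WT and 609 to 1205 FPKM in *Crlf2*-/- hearts. Over all genes tested, 49.1% had a log2 fold change above 0. The cardiomyocyte sum is mostly *Actc1*, and the groups overlapped for each of the 8 genes except *Myl2*. The 4 smooth muscle and myofibroblast markers summed to 522 to 660 FPKM in WT and 681 to 759 FPKM in *Crlf2*-/- hearts, ranges that do not overlap. This sum is mostly *Acta2*. The groups overlapped for *Tagln*, *Cnn1* and *Myh11*, and *Myh11* was lower in *Crlf2*-/- hearts (log2 fold change -0.19). Macrophage markers summed to 1639 to 3036 and 1751 to 2561 FPKM, endothelial markers to 124 to 148 and 116 to 126 FPKM, and cartilage and tendon markers to 33.6 to 42.9 and 28.1 to 49.5 FPKM. The 5 T cell markers summed to 5.16 to 8.34 FPKM in WT and 2.54 to 3.03 FPKM in *Crlf2*-/- hearts, and the 3 haemoglobin genes to 212 to 350 and 78.1 to 155 FPKM, with all 5 and all 3 lower. No marker was at 0 in any library, and 0 markers of any list were called different. In tissue RNA, fewer cells of a type and less RNA per cell cannot be told apart. The part of these markers in the results below was not tested.

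WT replicate 1 stood apart from the other libraries in the matrix genes. It held the lowest of the 6 FPKM values for 31 of the 53 members (58.5%), where it was lowest for 15.3% of all genes tested. Within the WT group it was lowest for 43 members (81.1%), against 34.8% of all genes tested. Relative to the WT mean on the log2 scale, the median member was at -0.21 in WT replicate 1, at 0.07 and 0.15 in WT replicates 2 and 3, and at 0.04, -0.03 and 0.12 in the *Crlf2*-/- replicates. The same library had the lowest sum of fibroblast markers of all 6, at 5044 FPKM against 5541 to 6108 FPKM in the others. That sum is mostly collagen, and *Col1a1* (1948 FPKM), *Col1a2* (1012 FPKM) and *Pdgfrb* (49.5 FPKM) were lowest in this library. The fibroblast markers *Dpt* (208 FPKM) and *Tcf21* (28.2 FPKM) went the other way and were highest in it. WT replicate 1 also had the lowest sum of cardiomyocyte markers in its group, at 919 FPKM, and the highest sum of macrophage markers of all 6, at 3036 FPKM. The macrophage sum is mostly *Lyz2* (2575 FPKM). *Cd68* and *Adgre1* were also highest in this library, while *Csf1r* and *Cd14* were highest in *Crlf2*-/- replicate 2. The part of these markers in the low matrix values of WT replicate 1 was not tested.

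**Figure D1:**
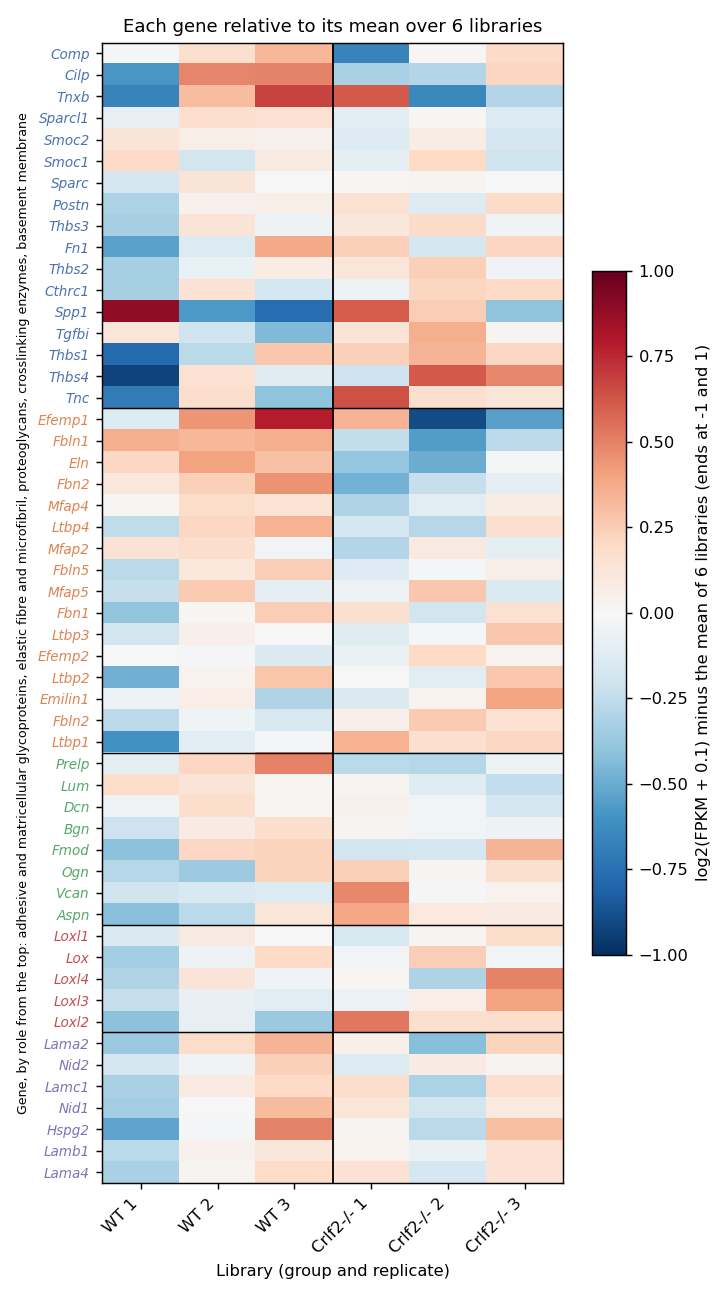
Heat map of the 53 members (rows, grouped by role) in the 6 libraries (columns). Colour gives log2(FPKM + 0.1) minus the gene's mean over the 6 libraries, and the column of WT replicate 1 is mostly blue, with the lowest value for 31 of 53 members.

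Matrix transcripts were abundant in both genotypes. Of the 53 members, 24 had a mean over 100 FPKM and 46 a mean over 10 FPKM, and the median member stood at 78.4 FPKM. *Sparc*, a collagen-binding matricellular glycoprotein, was the most abundant, at 1938, 2386 and 2166 FPKM in WT and 2206, 2221 and 2170 FPKM in *Crlf2*-/- hearts. *Postn* (periostin), a marker of activated fibroblasts, followed at 853, 1096 and 1110 FPKM in WT and 1185, 975 and 1218 FPKM in *Crlf2*-/- hearts. The proteoglycan *Bgn* (biglycan) came next, at 852, 1045 and 1113 FPKM and 1005, 966 and 950 FPKM, and its range overlapped that of *Postn*. For each of these genes the lowest of the 6 values was that of WT replicate 1, and the genotypes overlapped. The least abundant members were *Tnxb* (tenascin X), at a mean of 1.79 FPKM, *Loxl4* at 2.41 FPKM and *Efemp1* (fibulin 3) at 2.63 FPKM. All 53 passed the filter on low genes, and the smallest number of fragments behind any value was 60, for *Efemp1* in *Crlf2*-/- replicate 2.

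**Figure D2:**
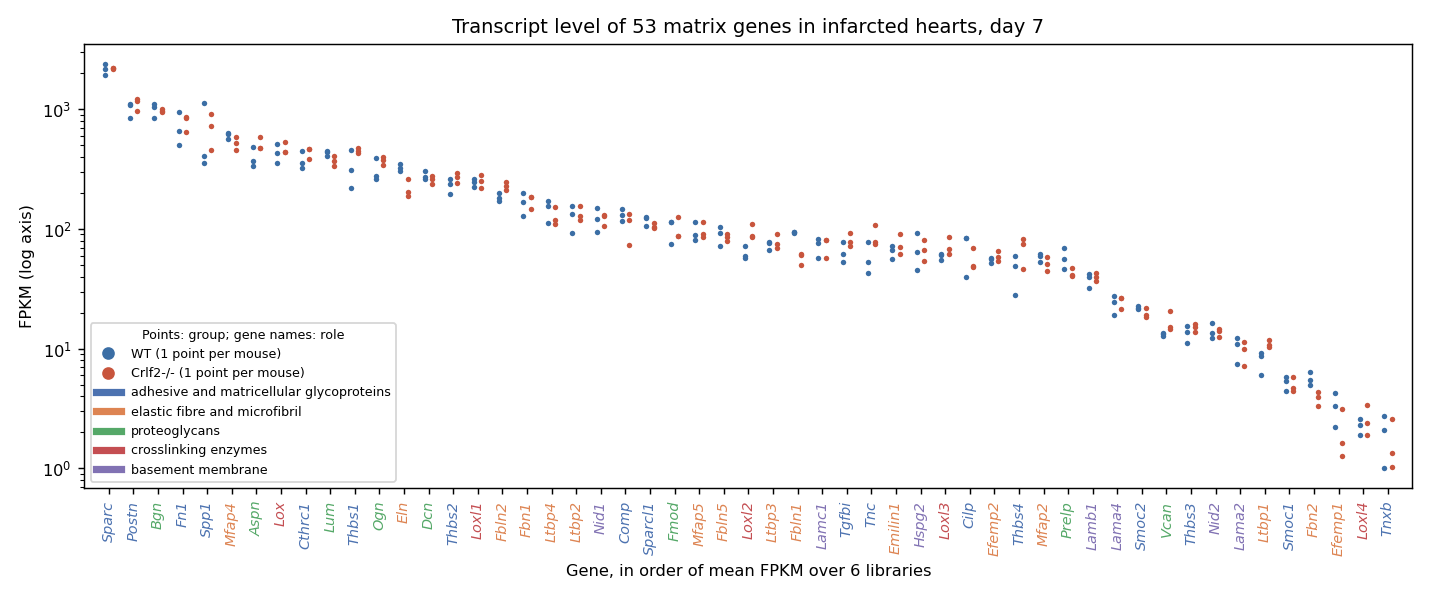
FPKM (log axis) of the 53 members in order of their mean, with 1 point per mouse, WT and *Crlf2*-/- side by side, and gene names coloured by role. Means run from 1.79 FPKM for *Tnxb* to 2181 FPKM for *Sparc*, and for most genes the points of both genotypes overlap.

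None of the 53 members was called different between *Crlf2*-/- and WT hearts, for which an adjusted p no higher than 0.05 and a log2 difference of 0.5 or more were required, where 0.0129% of the genes tested were called (2 genes). The study used DESeq2 at the same thresholds and reported many more genes as different. The counts called here are those of the limma fit on FPKM and do not stand for the study's own. Adjusted p-values of the members ran from 0.149 to 0.997 (limma on log2(FPKM + 0.1), Benjamini-Hochberg adjustment over 15520 tested genes). At an unadjusted limma p under 0.05, 5 members were higher (9.43%, against 3.22% of the genes tested) and 4 were lower (7.55%, against 3.36%). The higher ones were *Loxl2*, *Ltbp1*, *Tnc*, *Fbln2* and *Vcan*, and the lower ones were *Fbln1*, *Eln*, *Fbn2* and *Prelp*. The genotypes did not overlap for 5 members that were higher (9.43%, against 5.24% of the genes tested) and 3 that were lower (5.66%, against 6.45%). In an exact permutation test (two-sided) these 8 members had p = 0.1, the smallest p that 3 mice against 3 can give. Groups that do not overlap always give this p, so the test adds nothing to the missing overlap.

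The list as a whole had no direction that held when single libraries were left out. With all 6 libraries, 32 members were higher and 21 lower in *Crlf2*-/- hearts, with a median log2 fold change of 0.04, beside -0.0042 over all genes tested. Without WT replicate 1, 21 members were higher and 32 lower, with a median of -0.06. Without *Crlf2*-/- replicate 3, 27 were higher and 26 lower, with a median of 0.01. These medians are small beside the SD of the median member between mice of the same genotype, which was 0.14. Of the 9 members named above, *Fbln1*, *Eln*, *Fbn2*, *Loxl2* and *Ltbp1* kept an unadjusted p under 0.05 in each of 13 fits, which were the reported one, 6 other settings and 6 that each left out 1 library. Without WT replicate 1, 4 members were higher at an unadjusted p under 0.05 (*Loxl2*, *Ltbp1*, *Spp1* and *Tgfbi*) and 6 were lower (*Fbln1*, *Eln*, *Fbn2*, *Prelp*, *Cilp* and *Efemp1*), where 3.33% and 3.45% of the genes tested in that fit were.

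**Figure D3:**
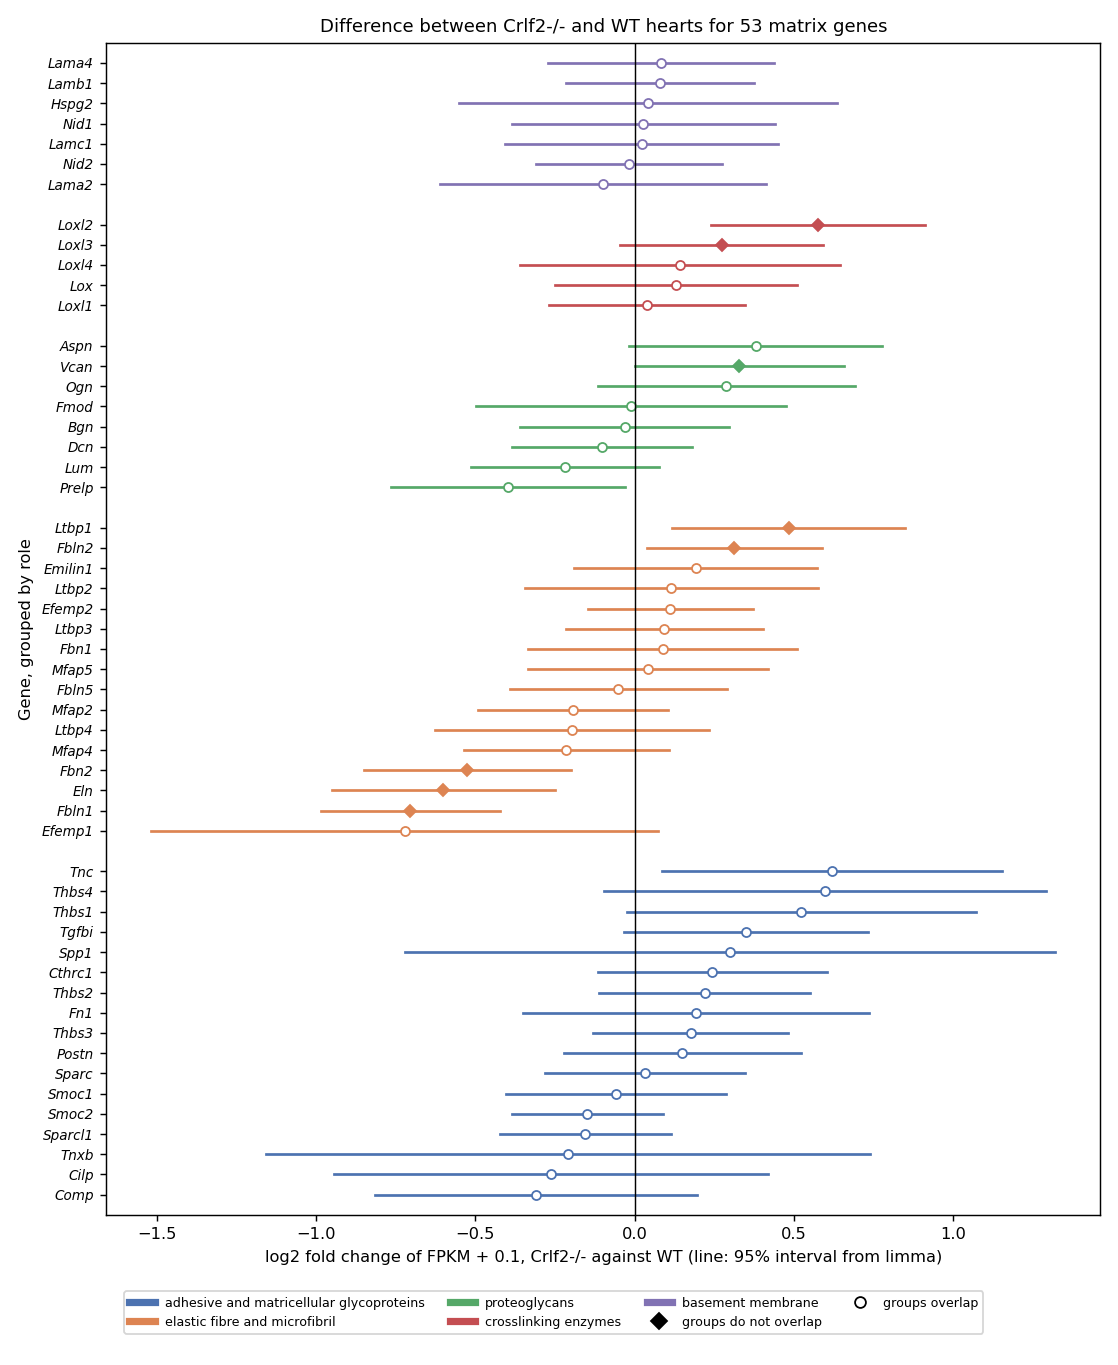
Log2 fold change of FPKM + 0.1 in *Crlf2*-/- against WT hearts for each member, grouped by role, with the 95% interval from limma. Filled diamonds mark the 8 members whose genotypes do not overlap, from -0.70 for *Fbln1* to 0.58 for *Loxl2*.

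The elastic fibre and microfibril genes held the 4 lowest log2 fold changes of the 53 members, those of *Efemp1*, *Fbln1*, *Eln* and *Fbn2*. Of 16 members, 8 were higher and 8 lower, with a median log2 fold change of -0.004, and 2 higher and 3 lower ones had an unadjusted p under 0.05 (12.5% and 18.8%, against 3.22% and 3.36% of the genes tested). *Fbln1* (fibulin 1, ENSMUSG00000006369, chromosome 15, 85205949 to 85286535, plus strand), a glycoprotein of elastic fibres and basement membranes, was at 94.0, 92.1 and 93.9 FPKM in WT and 61.6, 49.5 and 61.0 FPKM in *Crlf2*-/- hearts. The WT mice differed little among themselves, at 93.3 ± 1.04 FPKM (SD, n = 3), and all *Crlf2*-/- mice lay below them, at 57.4 ± 6.77 FPKM (SD, n = 3). The gene was 1.63-fold lower in *Crlf2*-/- hearts (log2 fold change -0.70, SE 0.12, adjusted p = 0.149 from limma), the smallest p of the 53 members. *Eln* (elastin, ENSMUSG00000029675, chromosome 5, 134702593 to 134747323, minus strand), the core protein of elastic fibres, was at 305, 351 and 325 FPKM in WT and 203, 187 and 261 FPKM in *Crlf2*-/- hearts. The groups were apart, with *Crlf2*-/- replicate 3 nearest to the WT values (log2 fold change -0.60, SE 0.15, adjusted p = 0.331 from limma). *Fbn2* (fibrillin 2), a microfibril protein best known from developing tissue, was at 4.99, 5.47 and 6.35 FPKM in WT and 3.32, 3.93 and 4.33 FPKM in *Crlf2*-/- hearts. These groups did not overlap either (log2 fold change -0.53, SE 0.14, adjusted p = 0.369 from limma).

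Other genes of the same fibres lay on the other side of 0 or near it. *Fbln2* (fibulin 2, ENSMUSG00000064080), which binds fibronectin and versican as well as elastic fibres, was at 171, 198 and 183 FPKM in WT and 211, 245 and 227 FPKM in *Crlf2*-/- hearts. Every *Crlf2*-/- library was above every WT library, the reverse of *Fbln1* (log2 fold change 0.31, SE 0.12, adjusted p = 0.672 from limma). *Ltbp1* (latent TGF-β binding protein 1, ENSMUSG00000001870, chromosome 17, 75005568 to 75392512, plus strand), which tethers latent TGF-β to fibrillin and fibronectin, was at 6.04, 8.61 and 9.15 FPKM in WT and 11.8, 10.4 and 10.7 FPKM in *Crlf2*-/- hearts. WT replicate 1 was the lowest, and without it the log2 fold change of 0.49 (adjusted p = 0.546 from limma) became 0.31. The other latent TGF-β binding proteins had log2 fold changes of 0.12 for *Ltbp2*, 0.09 for *Ltbp3* and -0.20 for *Ltbp4*, each with overlapping groups.

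*Fbn1* (fibrillin 1), the main microfibril protein of adult tissue, had a log2 fold change of 0.09, and its groups overlapped. The ratio of *Eln* to *Fbn1* FPKM, chosen after the values were seen and given without a test, was 2.40, 2.07 and 1.64 in WT and 1.09, 1.28 and 1.40 in *Crlf2*-/- hearts. The ratio of *Fbln1* to *Fbln2*, chosen in the same way, was 0.51 ± 0.043 (SD, n = 3) in WT and 0.254 ± 0.046 (SD, n = 3) in *Crlf2*-/- hearts. In WT replicate 1 both ratios were the highest of the 6 libraries. *Mfap4*, a microfibril-associated glycoprotein and the most abundant gene of the group, was at 566, 640 and 617 FPKM in WT and 457, 524 and 592 FPKM in *Crlf2*-/- hearts, with overlapping groups. *Efemp1*, which binds elastin precursors, was at 2.20, 3.33 and 4.27 FPKM in WT and 3.12, 1.26 and 1.63 FPKM in *Crlf2*-/- hearts, and its 95% interval of the log2 fold change, from -1.52 to 0.07, was the widest of the group. The remaining members, *Fbln5* and *Efemp2* (which guide elastic fibre assembly), *Emilin1*, *Mfap2* and *Mfap5*, had log2 fold changes between -0.19 and 0.19 and overlapping groups.

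**Figure D4:**
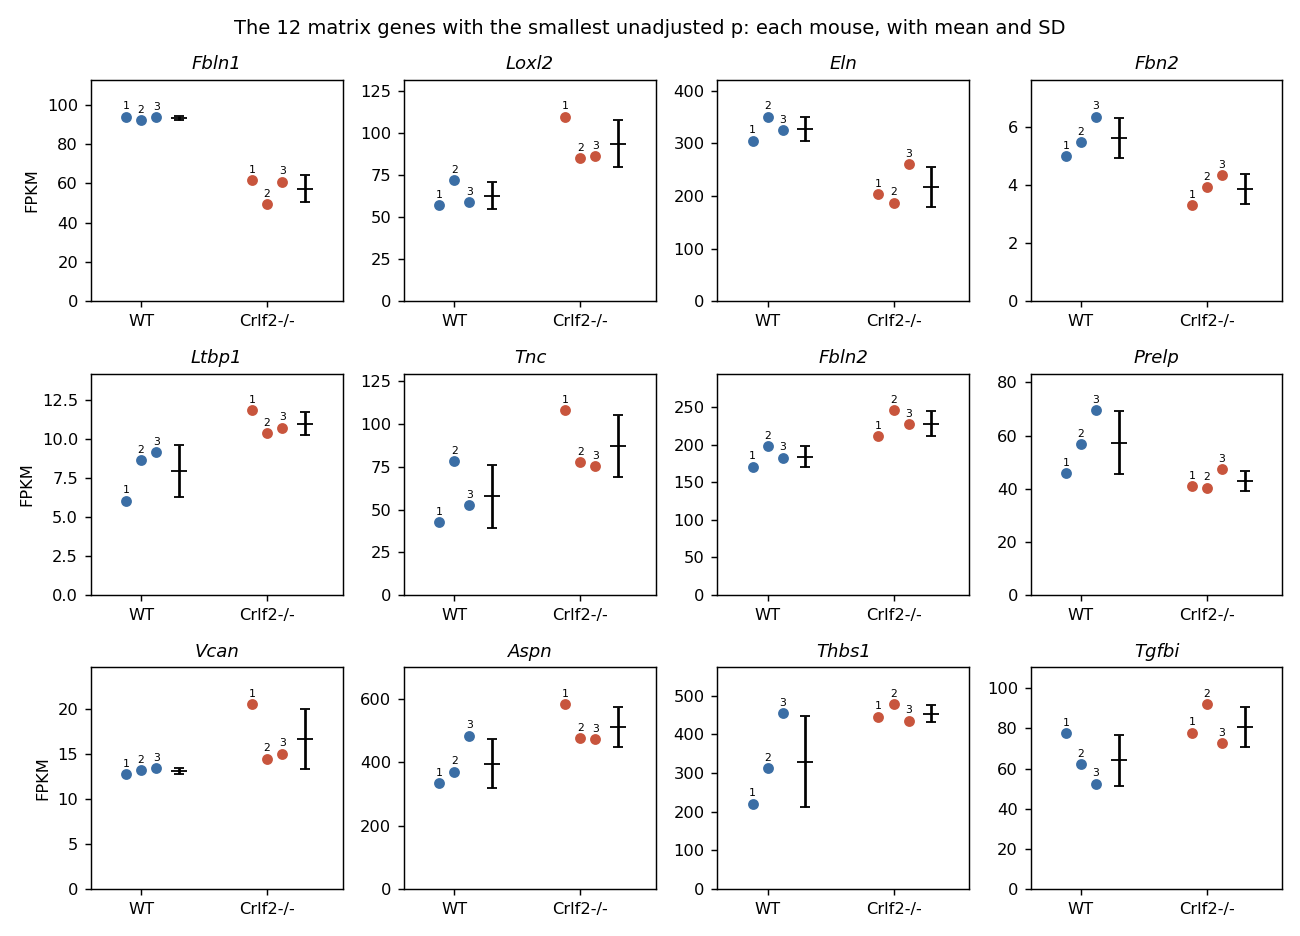
FPKM (axis from 0) of each mouse for the 12 members with the smallest unadjusted p, numbered by replicate, with the mean and SD of each genotype in black. *Fbln1*, *Eln* and *Fbn2* lie wholly lower and *Loxl2*, *Ltbp1*, *Fbln2* and *Vcan* wholly higher in *Crlf2*-/- mice, while *Thbs1* is spread from 220 to 456 FPKM among WT mice.

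All 5 crosslinking enzymes had a log2 fold change above 0, from 0.04 to 0.58, where 49.1% of all genes tested were above 0. At an unadjusted limma p under 0.05, 1 of them was higher (20%, against 3.22% of the genes tested). *Loxl2* (ENSMUSG00000034205, chromosome 14, 69609068 to 69695834, plus strand), a lysyl oxidase-like enzyme that crosslinks collagen, including the collagen IV of basement membranes, was at 57.5, 72.2 and 59.2 FPKM in WT and 110, 85.2 and 86.6 FPKM in *Crlf2*-/- hearts. All *Crlf2*-/- mice lay above all WT mice, with *Crlf2*-/- replicate 1 the highest (log2 fold change 0.58, SE 0.15, adjusted p = 0.331 from limma). The gene was 1.49-fold higher, and the 6 fits that each lacked 1 library gave log2 fold changes from 0.46 to 0.67. *Loxl3* was at 55.3, 61.8 and 60.4 FPKM in WT and 62.1, 68.1 and 85.6 FPKM in *Crlf2*-/- hearts, apart by a small margin (log2 fold change 0.27, SE 0.14, adjusted p = 0.827 from limma). Without *Crlf2*-/- replicate 3, its highest library, the log2 fold change was 0.14. *Lox*, the founding enzyme of the family and its most abundant member here, was at 353, 431 and 512 FPKM in WT and 437, 529 and 438 FPKM in *Crlf2*-/- hearts. Its groups overlapped, and its log2 fold change of 0.13 was -0.001 without WT replicate 1. *Loxl1*, which acts on elastin, differed by 0.04, and without *Crlf2*-/- replicate 3 by -0.04. *Loxl4* was at 1.90, 2.60 and 2.30 FPKM in WT and 2.40, 1.89 and 3.37 FPKM in *Crlf2*-/- hearts, and without *Crlf2*-/- replicate 3 it too was on the other side of 0, at -0.07. The single direction of the family thus held with all 6 libraries, and *Loxl2* and *Loxl3* kept it in every fit. Beside these genes, *Acta2*, which makes up most of the smooth muscle and myofibroblast marker sum, was higher in *Crlf2*-/- hearts. The other markers of that list overlapped between the genotypes, as given above, and the part of *Acta2* was not tested.

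Of the 17 adhesive and matricellular glycoproteins, 11 were higher and 6 lower, with a median log2 fold change of 0.18. At an unadjusted limma p under 0.05, 1 was higher (5.88%, against 3.22% of the genes tested) and 0 were lower (against 3.36%). *Tnc* (tenascin C, ENSMUSG00000028364, chromosome 4, 63959785 to 64047015, minus strand), a glycoprotein that appears in healing tissue, was at 42.6, 78.2 and 52.6 FPKM in WT and 108, 77.9 and 75.3 FPKM in *Crlf2*-/- hearts. WT replicate 2 lay among the *Crlf2*-/- values, so the groups overlapped (log2 fold change 0.62, SE 0.23, adjusted p = 0.652 from limma). *Thbs1* (thrombospondin 1), which can activate latent TGF-β, was at 220, 313 and 456 FPKM in WT and 446, 478 and 436 FPKM in *Crlf2*-/- hearts. The *Crlf2*-/- mice were close together and WT replicate 3 lay among them. Its log2 fold change of 0.52 (adjusted p = 0.792 from limma) was 0.27 without WT replicate 1 and 0.79 without WT replicate 3. *Thbs4*, *Thbs2* and *Thbs3* had log2 fold changes of 0.60, 0.22 and 0.18, and *Comp*, the fifth member of the thrombospondin family and better known from cartilage, one of -0.31, which was -0.054 without *Crlf2*-/- replicate 1. For *Thbs1* to *Thbs4* the lowest of the 6 values was that of WT replicate 1, and their fold changes were smaller without it, at 0.29 for *Thbs4*, 0.11 for *Thbs2* and 0.06 for *Thbs3*. *Tgfbi*, a TGF-β-induced adhesion protein, was at 77.9, 62.1 and 52.6 FPKM in WT and 78.0, 92.1 and 72.7 FPKM in *Crlf2*-/- hearts. Here WT replicate 1 was the highest WT value, and the log2 fold change of 0.35 became 0.50 without it.

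*Fn1* (fibronectin), the main protein of the provisional matrix, was at 503, 663 and 948 FPKM in WT and 857, 647 and 846 FPKM in *Crlf2*-/- hearts. WT mice spanned the whole range, and the log2 fold change of 0.19 was -0.02 without WT replicate 1. *Spp1* (osteopontin), which infarct macrophages are known to make, was at 1127, 409 and 359 FPKM in WT and 923, 720 and 461 FPKM in *Crlf2*-/- hearts. WT replicate 1 was the highest of all 6 for this gene, and it was also the library with the highest macrophage marker sum, which is mostly *Lyz2*. The log2 fold change of *Spp1* was 0.30 with a 95% interval from -0.72 to 1.32, and it was 0.83 without WT replicate 1. *Cthrc1*, a secreted protein of activated cardiac fibroblasts, was at 321, 445 and 357 FPKM in WT and 387, 469 and 464 FPKM in *Crlf2*-/- hearts, with overlapping groups. *Sparc* and *Postn* had log2 fold changes of 0.03 and 0.15. *Tnxb*, a tenascin of loose connective tissue, was at 1.01, 2.08 and 2.72 FPKM in WT and 2.60, 1.03 and 1.34 FPKM in *Crlf2*-/- hearts, and mice of each genotype differed more from each other than the group means did. The calcium-binding *Smoc1*, *Smoc2* and *Sparcl1* and the fibroblast-derived *Cilp* had log2 fold changes from -0.26 to -0.06, with overlapping groups.

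**Figure D5:**
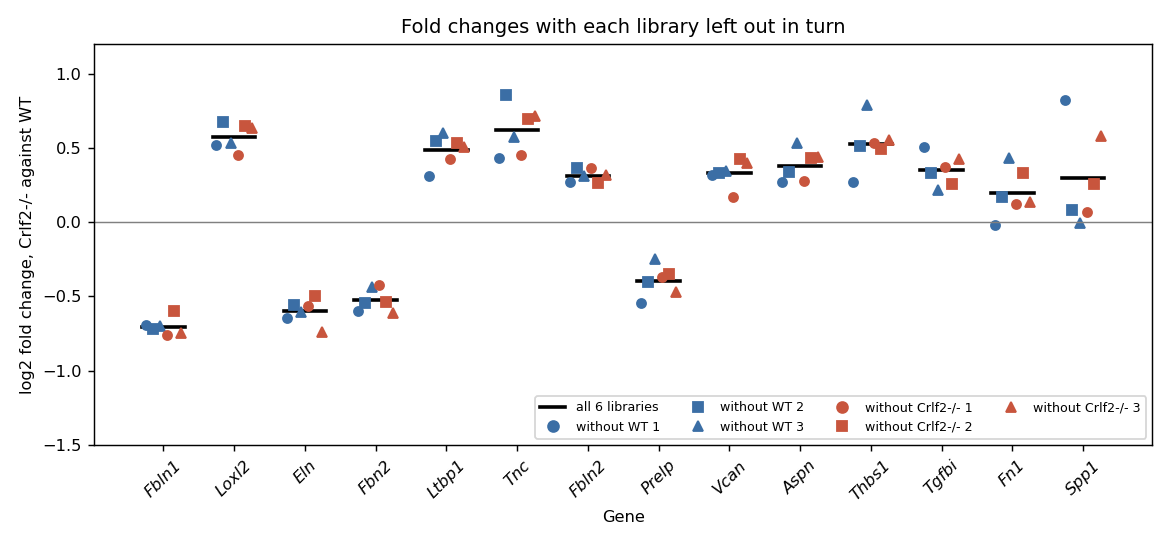
Log2 fold changes of the 12 members with the smallest unadjusted p, and of *Fn1* and *Spp1*, with all 6 libraries (black bar) and with each library left out (symbols). *Fbln1* stays between -0.76 and -0.60, while *Fn1* runs from -0.02 to 0.43 and *Spp1* from -0.01 to 0.83.

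The 8 proteoglycans had no common direction, with 3 higher and 5 lower and a median log2 fold change of -0.02. *Vcan* (versican, ENSMUSG00000021614, chromosome 13, 89655312 to 89742509, minus strand), a large chondroitin sulphate proteoglycan of provisional matrix, was at 12.8, 13.2 and 13.4 FPKM in WT and 20.5, 14.5 and 15.04 FPKM in *Crlf2*-/- hearts. The groups were apart, but most of the difference came from *Crlf2*-/- replicate 1, and the log2 fold change of 0.33 (SE 0.14, adjusted p = 0.756 from limma) was 0.17 without it. *Prelp* (ENSMUSG00000041577), a leucine-rich protein that anchors basement membranes to collagen, was at 45.9, 56.7 and 69.5 FPKM in WT and 40.9, 40.4 and 47.4 FPKM in *Crlf2*-/- hearts. WT replicate 1 lay within the *Crlf2*-/- range (log2 fold change -0.40, SE 0.16, adjusted p = 0.709 from limma). The small leucine-rich proteoglycans of collagen fibrils were split. *Aspn* (asporin) was at 334, 371 and 485 FPKM in WT and 584, 477 and 473 FPKM in *Crlf2*-/- hearts, with WT replicate 3 among the *Crlf2*-/- values and a log2 fold change of 0.38 (adjusted p = 0.792 from limma). *Ogn* (osteoglycin), encoded near *Aspn* on chromosome 13, was at 277, 263 and 394 FPKM in WT and 400, 344 and 378 FPKM in *Crlf2*-/- hearts, with overlapping groups. *Lum* (lumican) went the other way, at 452, 436 and 405 FPKM in WT and 407, 368 and 337 FPKM in *Crlf2*-/- hearts, and WT replicate 3 and *Crlf2*-/- replicate 1 overlapped. *Dcn* (decorin), *Bgn* and *Fmod* (fibromodulin) differed by -0.10, -0.03 and -0.01 on the log2 scale.

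The 7 basement membrane genes differed least between the genotypes. The nidogens *Nid1* and *Nid2*, the laminin chains *Lama2*, *Lama4*, *Lamb1* and *Lamc1*, and *Hspg2* (perlecan) had log2 fold changes between -0.10 and 0.08, none with an unadjusted p under 0.05. They varied more from mouse to mouse than between groups. WT replicate 1 was lowest in 6 of the 7 genes and WT replicate 3 highest in 6 of the 7. *Hspg2*, for example, was at 45.1, 64.3 and 91.9 FPKM in WT and 66.5, 54.0 and 80.4 FPKM in *Crlf2*-/- hearts, and its 95% interval ran from -0.55 to 0.63. Log2 differences inside that interval are not excluded by these 3 mice per genotype.

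A further list of 57 genes of matrix assembly and adhesion, which are not among the 53, was read from the same fit. All 57 were tested, 0 were called, 5 were higher and 4 lower at an unadjusted p under 0.05 (8.77% and 7.02%, against 3.22% and 3.36% of the genes tested). The median log2 fold change was 0.02, and without WT replicate 1 it was -0.02. *Mgp* (matrix Gla protein), an inhibitor of calcification, had the smallest p, at 853, 884 and 897 FPKM in WT and 554, 609 and 650 FPKM in *Crlf2*-/- hearts. All *Crlf2*-/- mice lay below all WT mice (log2 fold change -0.54, SE 0.12, adjusted p = 0.273 from limma). The next lower genes were *Chad*, a leucine-rich cartilage protein, and *Fbln7*, a further fibulin. *Chad* was at 1.34, 0.852 and 0.926 FPKM in WT and 0.671, 0.536 and 0.528 FPKM in *Crlf2*-/- hearts, and *Fbln7* at 1.55, 1.501 and 1.36 FPKM and at 1.201, 0.930 and 0.948 FPKM (log2 fold changes -0.73 and -0.48). The higher ones with the smallest p were *Sdc3*, a syndecan, *Has2*, which makes hyaluronan, and *Itga5*, the α chain of the main fibronectin receptor. *Sdc3* was at 74.3, 68.5 and 73.3 FPKM in WT and 86.8, 87.7 and 111 FPKM in *Crlf2*-/- hearts (log2 fold change 0.40, adjusted p = 0.551 from limma). *Has2* was at 2.36, 2.55 and 2.54 FPKM in WT and 3.71, 3.35 and 2.79 FPKM in *Crlf2*-/- hearts, and *Itga5* at 38.8, 42.9 and 36.3 FPKM and at 48.8, 47.2 and 45.7 FPKM (log2 fold changes 0.39 and 0.27). The genotypes overlapped for none of these 6 genes, which were picked by their small p. Among all 57, the genotypes did not overlap for 5 that were higher (8.77%, against 5.24% of the genes tested). They did not overlap for 3 that were lower (5.26%, against 6.45%). By role, 12 of 13 collagen hydroxylases, chaperones and other crosslinkers were higher, where 49.1% of all genes tested were above 0. Their log2 fold changes were small, from -0.11 to 0.24 with a median of 0.09, and the genotypes overlapped for 12 of the 13. WT replicate 3 held the lowest of the 6 values for several of them, among them *Serpinh1*, *P4hb* and *Pcolce*, and WT replicate 1 for *Crtap* and *Plod2*. The direction of this role with libraries left out was not tested. Of 22 further glycoproteins and proteoglycans, 15 were lower, with a median of -0.13. Of 5 genes of the CCN family, 3 were higher, and of 17 matrix receptors and hyaluronan synthases, 10 were.

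Exons of 19 members share bases with another annotated gene, for 18 of them on the opposite strand, and whether the authors' counting used strand is not given in the sources used here. The shared part was 20.1% of exon bases for *Fbn1*, 18.8% for *Spp1*, 11.6% for *Loxl3* and 9.68% for *Prelp*, so their levels are uncertain by the fragments of the partner. It was 5.70% for *Loxl2* and 3.30% for *Eln*. *Fbln1*, *Fbn2*, *Ltbp1*, *Fbln2* and *Vcan* share no exon base with another gene.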

How the data were processed

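Infarcted hearts from 3 WT and 3 *Crlf2*-/- mice, taken on day 7, had been sequenced, and groups were taken from the sample titles. The extraction protocol in the labels describes retina, while the tissue label and the study's methods say heart, and the latter were followed. The authors trimmed reads with fastp, aligned them with Hisat2 (HISAT2 2.0.5 in the submitters' processing notes, which list both mm10 and hg38), counted with featureCounts and deposited FPKM per gene. Of the 53 members, 50 had the same start, end and strand as in GENCODE M21 (GRCm38).

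FPKM times gene length gave whole fragments for all nonzero values, with a tolerance of 0.05 that widened in proportion to the count for abundant genes. For the largest counts this check could not fail. The whole fragments served for depth, filter and scaling. A gene was tested if 3 or more libraries held 10 or more of its fragments and all libraries together 15 or more, which left 15520. After scaling by a trimmed mean of M values, log2(FPKM + 0.1) was fitted with limma 3.58.1 in R 4.3.3 (lmFit, eBayes with trend and robust), with Benjamini-Hochberg adjustment. Fold changes on this scale understate those of low genes. SD is over 3 mice.

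Single genes were also given an exact permutation test. The members and lists were chosen with earlier results of these data known, so no test over a list was made. All members were named, with values in each library for the 12 of smallest unadjusted p, the 12 of highest and the 3 of lowest mean FPKM, and likewise for 3 higher and 3 lower genes of the further list. The fit was tested on simulated data. Alternatives were a pseudocount of 1, no scaling, no filter, at least 10 fragments in every library, voom on fragments, a replicate block and leaving out each library. Columns of other samples numbered 0. Python 3.11.15, pandas 2.3.3, numpy 2.4.6 and matplotlib 3.10.9 were used for annotation and figures.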

Additional observations from a re-analysis of the deposited data

How the results depend on the processing

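The number of members called different was 0 in every setting tried. Over all genes tested the number called was 2. It was 6 with no filter on low genes, 1 with at least 10 fragments in every library, and 1 to 14 with each library left out, with 14 without *Crlf2*-/- replicate 1, 5 without WT replicate 3 and 1 without WT replicate 1, without WT replicate 2 or without *Crlf2*-/- replicate 3. With voom, 8 members were higher at an unadjusted p under 0.05 in place of 5. With the replicate number as a block, 4 genes were called over all genes and the number of members at an unadjusted p under 0.05 was 10 in place of 9, but libraries with the same number shared few deviations from their group means (correlations of -0.016, 0.115 and 0.12), so the block was kept as an alternative only. The cause of each of these shifts was not tested. For the log2 fold changes of single members, direction was kept in the 318 comparisons with the other settings and in 282 of the 318 with 1 library left out, and 36, in 22 members, reversed. Of the 8 members with a log2 difference of 0.5 or more in either direction, *Fbln1* stayed there in every fit, and *Efemp1*, *Eln*, *Fbn2*, *Loxl2*, *Thbs1*, *Thbs4* and *Tnc* came under it in at least 1 fit (*Fbn2* also with a pseudocount of 1, at -0.44). With each library left out these 22 ranged from -0.14 to 0.0487 for *Bgn*, from -0.19 to 0.0593 for *Fbln5*, from -0.0805 to 0.23 for *Fbn1*, from -0.21 to 0.0978 for *Fmod*, from -0.019 to 0.43 for *Fn1*, from -0.21 to 0.30 for *Hspg2*, from -0.30 to 0.0958 for *Lama2*, from -0.0555 to 0.19 for *Lama4*, from -0.0303 to 0.16 for *Lamb1*, from -0.13 to 0.19 for *Lamc1*, from -0.00111 to 0.26 for *Lox*, from -0.0394 to 0.12 for *Loxl1*, from -0.0671 to 0.34 for *Loxl4*, from -0.0894 to 0.28 for *Ltbp2*, from -0.0147 to 0.17 for *Ltbp3*, from -0.0749 to 0.18 for *Mfap5*, from -0.13 to 0.19 for *Nid1*, from -0.10 to 0.0956 for *Nid2*, from -0.17 to 0.0279 for *Smoc1*, from -0.0385 to 0.0998 for *Sparc*, from -0.00693 to 0.83 for *Spp1* and from -0.59 to 0.0754 for *Tnxb*. Their values with all 6 libraries lay between -0.21 and 0.30. Spread between mice and counting error were not separated, and the fewest fragments behind a member's value were 60, for *Efemp1*.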
